A study of Mus musculus with 8 samples.

Results

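The DNA damage checkpoint and repair genes were 36 genes chosen by symbol for their roles in homologous recombination, the Fanconi pathway, mismatch repair, end joining and the checkpoint kinases, with earlier results of these data known. Of these, 34 were measured, among 17097 genes in all. Xrcc2 and Rbbp8 have no probe set of their own in the annotation used and were not analysed here. The genes were measured in cells sorted for α6-integrin and CD34, surface proteins that mark the cancer stem cells of mouse skin squamous cell carcinoma (SCC). Cells came from poorly differentiated tumours (PD-SCC, titled PD/S-SCC in the labels, 4 arrays) and from well differentiated tumours (WD-SCC, 4 arrays) of the lineages OT7, OT14 and OT15. OT7 had 2 arrays per stage, called a and b here, and OT14 and OT15 had 1 array per stage.

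All tumours of both stages derived from spontaneous or DMBA-TPA-induced carcinomas of K14-HPV16 mice, which carry a human papillomavirus transgene under a keratin promoter of basal keratinocytes, and the strain is given as FVB/C57/Bl6. Tumours were engrafted orthotopically in nude mice and transplanted serially, and the PD-SCC samples are later passages of the lineages that gave the WD-SCC samples. A lineage is thus 1 starting tumour, and stage goes with passage, so the stage and the number of passages cannot be told apart. Suspensions were depleted of haematopoietic and endothelial cells before the sort. The labels call the arrays biological replicates and name no separate animals, so the p-values measure the spread between these arrays, which may be technical in part. No ages are given.

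Cells answer a broken or blocked chromosome by stopping the cell cycle and rebuilding the DNA. ATM senses double-strand breaks and ATR senses stalled forks, and they act on the effector kinases CHEK2 and CHEK1. Breaks are then joined end to end by the end joining proteins, or copied from the sister chromatid by the recombination proteins, while the Fanconi proteins unhook crosslinks and the mismatch repair proteins correct replication errors. Many of these genes are transcribed most in dividing cells, and in human families inherited loss of several of them raises cancer risk.

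Against the WD-SCC cells, the PD-SCC cells had higher RNA for 4 of the 34 genes, a share (11.8%) near the 7.78% of all genes that rose. These were the break-sensing kinase gene Atm, the recombination gene Brca1, the mismatch recognition gene Msh6 and the Bloom helicase gene Blm. The promoters of these 4 genes are shown because they are the members whose stage difference passed the test. Each is the 250 bases before the start of the gene in RefSeq (build GRCm38.p6), written 5′ to 3′ on the gene's strand, with the letters CCAAT or their reverse complement ATTGG, a box bound by the factor NF-Y, in capitals. The Atm window is chr9:53536672-53536921 on the minus strand and that of Brca1 is chr11:101551956-101552205 on the minus strand. The Msh6 window is chr17:87974800-87975049 on the plus strand and that of Blm is chr7:80534999-80535248 on the minus strand.
Atm: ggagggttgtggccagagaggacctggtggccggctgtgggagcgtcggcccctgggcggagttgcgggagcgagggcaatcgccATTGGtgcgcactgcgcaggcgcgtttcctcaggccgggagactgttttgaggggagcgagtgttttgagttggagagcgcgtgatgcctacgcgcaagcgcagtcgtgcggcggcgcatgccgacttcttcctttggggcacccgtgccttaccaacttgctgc
Brca1: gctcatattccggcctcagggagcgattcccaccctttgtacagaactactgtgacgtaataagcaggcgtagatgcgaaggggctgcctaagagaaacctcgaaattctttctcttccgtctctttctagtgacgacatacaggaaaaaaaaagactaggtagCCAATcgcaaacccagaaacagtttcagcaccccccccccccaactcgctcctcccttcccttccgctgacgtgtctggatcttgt
Msh6: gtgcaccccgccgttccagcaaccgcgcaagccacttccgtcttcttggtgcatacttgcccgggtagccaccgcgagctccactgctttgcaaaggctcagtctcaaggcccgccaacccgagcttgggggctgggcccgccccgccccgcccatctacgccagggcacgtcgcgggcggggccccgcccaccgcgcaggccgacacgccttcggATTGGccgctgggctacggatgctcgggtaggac
Blm: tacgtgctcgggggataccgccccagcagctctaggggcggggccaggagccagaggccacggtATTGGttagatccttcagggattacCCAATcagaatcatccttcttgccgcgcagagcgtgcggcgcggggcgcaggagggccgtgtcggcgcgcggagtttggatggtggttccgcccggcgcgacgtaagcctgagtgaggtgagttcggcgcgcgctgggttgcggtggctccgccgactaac

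The table of promoters held 31 windows for 27 of the 36 genes, each of 300 bases (250 before and 50 after the start), among 32851 windows of all genes. CCAAT on either strand was found in 19 of the 31 windows and in 37.4% of all windows. It lay in the windows of 17 genes, among them Atm, Brca1, Msh6 and Blm, and also in windows of genes that did not pass the test, such as Fancm, Pms2 and Chek2. A set of E2F-type letters (TTTCGCGC, TTTGGCGC, TTTCCCGC or TTTGCCGC, both strands) was found in 7 of the 31 windows and in 2.26% of all windows. The 6 genes with these letters were Bard1, Brca2, Chek2, Fancg, Msh6 and Rad51c, and in Msh6 they begin at base 16 after the start, outside the stretch printed. The cell cycle homology letters TTTGAA or TTCGAA, both strands, were found in 3 of 31 windows and in 19.2% of all windows. No match of one set shares bases with a match of another in these windows. A match describes the letters in a window and shows no binding.

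Levels below are log2 values after RMA, 1 unit being a doubling, and where a gene has several probe sets the one of highest average level stands for it. The brightest of 15 probe sets for bacterial genes that are not added to the sample served as the level of no signal on each array. This control was 3.61 to 3.81 on the PD-SCC arrays and 3.82 to 4.37 on the WD-SCC arrays (3.69 ± 0.09 in PD-SCC and 4.11 ± 0.22 in WD-SCC, SD, n = 4 each), and an exact two-sided permutation test gave p = 0.0286, the smallest that 4 against 4 allows. Between 18 and 26 of the 34 genes exceeded it on a PD-SCC array, against 9 to 16 on a WD-SCC array. All genes shifted the same way, with 55.5 to 63.7% above it on a PD-SCC array and 45.2 to 58.2% on a WD-SCC array. Of the 34 genes, 17 exceeded it on at least 1 array of each stage, 13 on PD-SCC arrays alone, and 4 (Brip1, Rad54b, Fancb and Lig4) on none of the 8. The share of all genes above it on PD-SCC arrays alone was not counted. At or under the control on all 8 arrays were 28.7% of all genes. It was exceeded on at least 4 arrays by 18 of the 34 genes and by 57.8% of all genes. For the 13 genes no fold is given unless it is a lower bound.

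**Figure D1:**
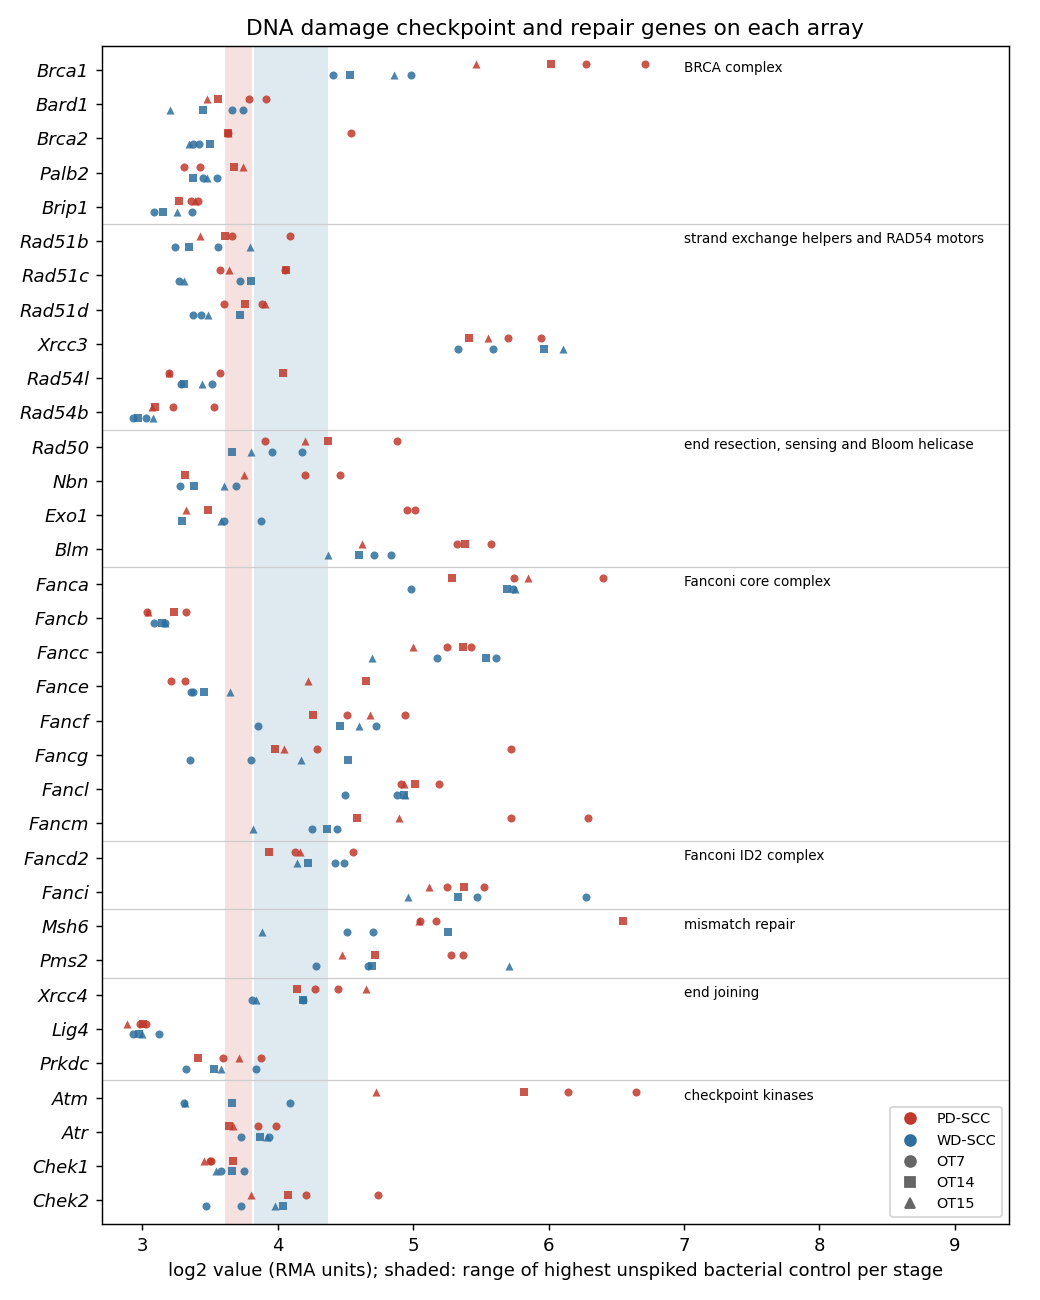
Log2 value (RMA units, horizontal axis) of each of the 34 genes on each array, PD-SCC in red above WD-SCC in blue, with circles for OT7, squares for OT14 and triangles for OT15; shaded bands are the range of the brightest unspiked bacterial control in each stage. The red and blue points of Brca1 and Atm lie apart, and the points of many other genes mingle or lie within or left of the bands.

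The stage difference was tested with limma across all 17097 genes with lineage as a block, and a gene rose or fell if its Benjamini-Hochberg adjusted p was under 0.05. Of the 34 genes, 4 rose and 0 fell, while of all genes 7.78% rose and 4.81% fell (1331 and 823 genes). The members' share that rose, 11.8%, was near that background and is no result about the members. Without the lineage block 2 of the 34 rose (Atm and Brca1), and with the OT7 arrays averaged, or without OT7, 0 of 34 did. An unadjusted p under 0.05 in either direction was reached by 6 of the 34 (17.6%), the 4 above with Fancm and Rad51d, against 31.9% of all genes. The split of calls over all genes depends on the scaling: 799 higher and 930 lower after cyclic loess, and 1150 higher and 1205 lower after scaling to the 75th percentile of each array. It was 202 and 199 with the OT7 arrays averaged, and 52 and 194 without OT7.

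The median difference (PD-SCC minus WD-SCC) of the 34 genes was 0.22, against -0.06 over all genes, and the point estimate was above 0 for 28 of the 34 genes, against 42.2% of all genes. Scaling to the 75th percentile moved the median of all genes to -0.21 and that of the members to 0.071, with 21 of 34 above 0. When values under the bacterial control were raised to it, the median was -0.10 for the members and -0.38 for all genes, while the control itself differed by -0.42. A value raised to the control takes on the control's own stage difference, so that median is in part the control's. Among genes above the control on at least 4 arrays, the median was 0.33 for the members and 0.12 for all genes. A gene can pass that filter through the stage where it is high. The sign of the members' median therefore depends on how dim values are treated.

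Among the checkpoint kinases 1 of 4 genes rose and 0 fell. Atm had log2 levels of 6.14 (a) and 6.65 (b) in OT7, 5.82 in OT14 and 4.73 in OT15 on the PD-SCC arrays, against 4.09 (a), 3.31 (b), 3.66 and 3.31 on the WD-SCC arrays. All 4 PD-SCC values lay above the 4 WD-SCC values, and the WD-SCC values were all at or under the bacterial control. The means were 5.83 ± 0.81 in PD-SCC and 3.59 ± 0.37 in WD-SCC (SD, n = 4 each), a difference of 2.24 (limma, adjusted p = 0.0112). With WD-SCC values taken as no lower than the control, Atm was at least 3.29-fold higher in PD-SCC cells, a bound that was not itself tested. Every PD-SCC array lay above every WD-SCC array for 4 of the 34 genes (Brca1, Brca2, Fancm and Atm) and for 10.8% of all genes, and below for 0 of the 34 and 13.3% of all genes.

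Chek2, the effector kinase that ATM phosphorylates, had 4.21 (a) and 4.74 (b) in OT7, 4.08 in OT14 and 3.80 in OT15 on PD-SCC arrays, against 3.47 (a), 3.73 (b), 4.04 and 3.98 on WD-SCC arrays. Both OT7 PD-SCC values lay above the OT7 WD-SCC values and the OT15 PD-SCC value lay below its WD-SCC partner, and the mean difference was 0.41 (95% interval -0.20 to 1.01, adjusted p = 0.306). Chek1, the effector kinase downstream of ATR, had 3.50 (a) and 3.51 (b), 3.67 and 3.46 in PD-SCC, against 3.75 (a), 3.58 (b), 3.66 and 3.54 in WD-SCC. It exceeded the bacterial control on 1 PD-SCC array and on no WD-SCC array (3.53 ± 0.09 in PD-SCC and 3.63 ± 0.09 in WD-SCC, adjusted p = 0.471). The sign for Chek1 depends on the probe set, since the other 4 differed by 0.02 to 0.44, and none of the 5 passed the test. The largest of these, 1450677_PM_at, was under the control on all 8 arrays (difference 0.44, 95% interval 0.09 to 0.79, adjusted p = 0.104). Atr itself ranged from 3.64 to 3.99 in PD-SCC and from 3.73 to 3.93 in WD-SCC, with overlapping groups. So the rise among the 4 kinases was that of Atm, and whether it differed from the other 3 was not tested.

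In the BRCA group, Brca1, a ubiquitin ligase subunit that starts recombination, had 6.71 (a) and 6.28 (b) in OT7, 6.02 in OT14 and 5.46 in OT15 on PD-SCC arrays, against 4.41 (a), 4.98 (b), 4.53 and 4.85 on WD-SCC arrays. The groups did not overlap, and all 8 values exceeded the control. The means of 6.12 ± 0.52 in PD-SCC and 4.70 ± 0.27 in WD-SCC (SD, n = 4 each) differed by 1.42 with a standard error of 0.26, a 2.68-fold rise (adjusted p = 0.0265). Its call was lost when single arrays of OT7 (WD-SCC b, PD-SCC a or PD-SCC b) or either OT14 array were left out, with adjusted p between 0.0676 and 0.0793 and differences between 1.26 and 1.46.

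Brca2, a mediator of recombination, had 3.63 (a) and 4.54 (b) in OT7, 3.64 in OT14 and 3.63 in OT15 on PD-SCC arrays, against 3.42 (a), 3.37 (b), 3.50 and 3.35 on WD-SCC arrays. The groups did not overlap, but 1 PD-SCC array stood far above the other 3, and the WD-SCC values were all under the control (3.86 ± 0.46 in PD-SCC and 3.41 ± 0.07 in WD-SCC, adjusted p = 0.234). Bard1, the binding partner of BRCA1, had 3.79 (a), 3.92 (b), 3.56 and 3.47 in PD-SCC, against 3.74 (a), 3.66 (b), 3.45 and 3.21 in WD-SCC. Its WD-SCC values were also under the control and the groups overlapped (3.68 ± 0.20 in PD-SCC and 3.52 ± 0.24 in WD-SCC, adjusted p = 0.249). Palb2, which bridges BRCA1 and BRCA2, exceeded the control on 1 PD-SCC array, and the helicase gene Brip1 did so on none. Brca1 was thus the 1 gene of the 5 in this group that was measurable on all arrays.

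Among the genes that assist strand exchange (Rad51b, Rad51c, Rad51d and Xrcc3) and the RAD54 motor proteins, 0 of 6 measured genes passed the test. Rad51d had 3.60 (a) and 3.89 (b) in OT7, 3.76 in OT14 and 3.91 in OT15 on PD-SCC arrays, against 3.43 (a), 3.37 (b), 3.72 and 3.49 on WD-SCC arrays (adjusted p = 0.156). Its sign depends on the probe set, since 1422770_PM_at differed by -0.15 and 1443891_PM_at by -0.04. With the mean of its probe sets the Rad51d difference was 0.03 (limma, adjusted p = 0.832). Rad51c had 3.57 (a), 4.05 (b), 4.06 and 3.64 in PD-SCC, against 3.72 (a), 3.27 (b), 3.80 and 3.31 in WD-SCC (adjusted p = 0.236). The Rad54b values of 3.23 (a), 3.53 (b), 3.10 and 3.07 in PD-SCC and 3.02 (a), 2.93 (b), 2.97 and 3.08 in WD-SCC were all under the control. In all 3 genes the stages overlapped, and no WD-SCC array exceeded the control. Xrcc3 was the exception in signal, with 5.41 to 5.94 in PD-SCC and 5.33 to 6.11 in WD-SCC above the control on all 8 arrays, and its difference was -0.10 (95% interval -0.64 to 0.44). Rad51b and Rad54l exceeded the control on 1 PD-SCC array each and on no WD-SCC array.

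Of the genes that sense, trim and unwind broken ends, Blm had 5.32 (a) and 5.57 (b) in OT7, 5.38 in OT14 and 4.62 in OT15 on PD-SCC arrays, against 4.71 (a), 4.83 (b), 4.60 and 4.37 on WD-SCC arrays. The PD-SCC OT15 array lay among the WD-SCC values, and within each lineage the PD-SCC value was the higher. Blm, which dissolves crossed-over recombination intermediates, averaged 5.22 ± 0.42 in PD-SCC and 4.63 ± 0.20 in WD-SCC (SD, n = 4 each), a difference of 0.59 (SE 0.13, adjusted p = 0.0391). Its call was lost without the lineage block (adjusted p = 0.104), with lineage as a random block (0.0990), after cyclic loess (0.0539), under 75th percentile scaling (0.0806), with a trended robust prior (0.0876), with the filter on dim genes (0.0531), with the OT7 arrays averaged (0.156) and without OT7 (0.318). It was also lost when any 1 OT7 array was left out, or either OT14 array, which give the same fit (adjusted p 0.0825 to 0.109).

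Exo1, a nuclease that lengthens resected ends, was split by lineage, with 5.01 (a) and 4.95 (b) in OT7, 3.48 in OT14 and 3.32 in OT15 on PD-SCC arrays, against 3.60 (a), 3.88 (b), 3.29 and 3.58 on WD-SCC arrays. The 2 OT7 PD-SCC arrays were the only ones of the 8 above the control. The means were 4.19 ± 0.91 in PD-SCC and 3.59 ± 0.24 in WD-SCC (difference 0.60, limma adjusted p = 0.213), and the untested lower bound was 1.05-fold. Nbn, of the MRN complex that recruits ATM to breaks, had 4.46 (a), 4.20 (b), 3.31 and 3.75 in PD-SCC, against 3.28 (a), 3.69 (b), 3.38 and 3.60 in WD-SCC. Nbn exceeded the control on the 2 OT7 PD-SCC arrays and on no other (adjusted p = 0.213). Rad50, its partner in that complex, ranged from 3.91 to 4.88 in PD-SCC and from 3.66 to 4.18 in WD-SCC, with overlap.

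**Figure D2:**
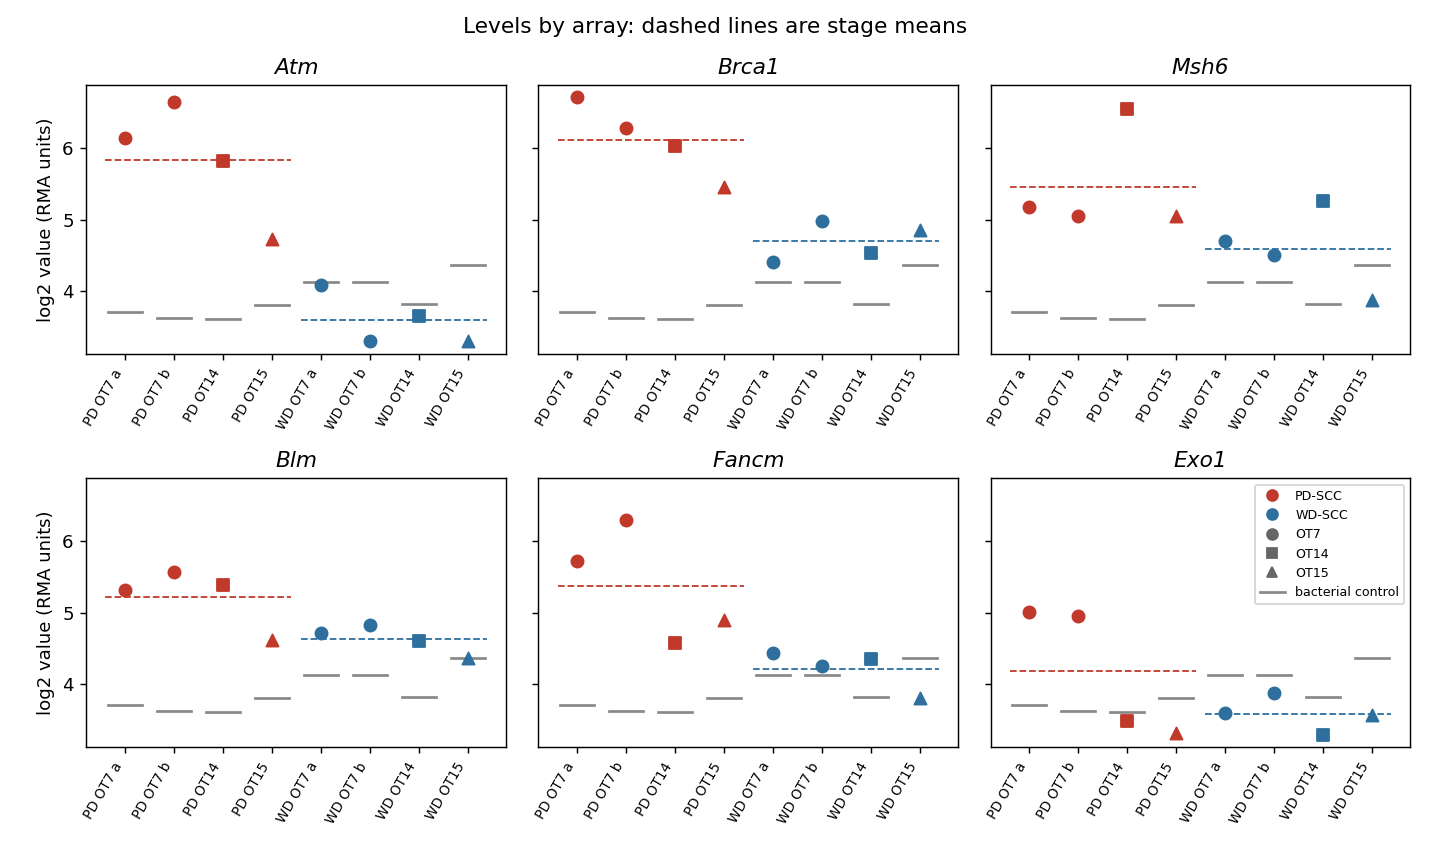
Log2 value (RMA units, vertical axis) of 6 genes on each array, PD-SCC left in red and WD-SCC right in blue, with dashed lines at the stage means of 4 arrays and grey bars at each array's brightest unspiked bacterial control. Atm, Brca1 and Fancm separate by stage, Msh6 and Blm overlap between stages but are higher in PD-SCC within each lineage, and Exo1 is above the control on the 2 OT7 PD-SCC arrays.

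In the Fanconi core complex, which marks crosslinked DNA for repair, 0 of 8 genes passed the test, and Fancm, the translocase that anchors the complex to DNA, came nearest. Fancm had 5.72 (a) and 6.29 (b) in OT7, 4.58 in OT14 and 4.90 in OT15 on PD-SCC arrays, against 4.44 (a), 4.25 (b), 4.36 and 3.81 on WD-SCC arrays. The groups did not overlap, and the means of 5.37 ± 0.78 in PD-SCC and 4.22 ± 0.28 in WD-SCC (SD, n = 4 each) differed by 1.16 (SE 0.29, adjusted p = 0.0539). It passed the threshold in 4 of 16 distinct alternative settings, with adjusted p from 0.0334 to 0.341 over all of them.

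Fance, a core subunit, had 3.21 (a) and 3.31 (b) in OT7, 4.65 in OT14 and 4.22 in OT15 on PD-SCC arrays, against 3.37 (a), 3.36 (b), 3.46 and 3.65 on WD-SCC arrays. Here the OT14 and OT15 PD-SCC arrays exceeded the control and the OT7 arrays did not (adjusted p = 0.308). Fancl, the ubiquitin ligase of the complex, had 4.91 (a), 5.19 (b), 5.01 and 4.93 in PD-SCC, against 4.88 (a), 4.49 (b), 4.93 and 4.94 in WD-SCC. Its groups overlapped and its difference was 0.20 (95% interval -0.16 to 0.56). Of the other 5 subunits, Fanca and Fancc were above the control on all 8 arrays, with differences of 0.28 and 0.01. Fancf and Fancg were above it on 4 PD-SCC arrays each and on 3 and 1 WD-SCC arrays, with differences of 0.19 and 0.55. Fancb was below it throughout. The second probe sets of Fancc and Fancg point the other way. That of Fancc (1442265_PM_at), above the control on all 8 arrays, averaged 4.86 ± 0.38 in PD-SCC and 5.36 ± 0.52 in WD-SCC (SD, n = 4 each, limma adjusted p = 0.314), and that of Fancg (1420960_PM_at) differed by -0.15. By lineage, the Fancg difference was 1.43 for OT7, -0.54 for OT14 and -0.13 for OT15.

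Of the 2 substrates of the complex 0 passed the test. Fancd2 had 4.13 (a) and 4.56 (b) in OT7, 3.93 in OT14 and 4.16 in OT15 on PD-SCC arrays, against 4.42 (a), 4.49 (b), 4.23 and 4.14 on WD-SCC arrays. The difference was -0.12 (95% interval -0.44 to 0.19, adjusted p = 0.533). The sign for Fancd2 depends on the probe set. The probe set 1439091_PM_at differed by 0.34 (95% interval 0.11 to 0.57, limma adjusted p = 0.0737) and 1430916_PM_at by -0.09, both under the control on all 8 arrays. With the mean of its probe sets the Fancd2 difference was 0.04. Fanci, its partner in the clamp that encloses DNA, had 5.25 (a), 5.53 (b), 5.37 and 5.12 in PD-SCC, against 6.28 (a), 5.47 (b), 5.33 and 4.96 in WD-SCC. Its difference was -0.19 (95% interval -0.76 to 0.37), and 1 WD-SCC array of OT7 was the highest of the 8.

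Of the mismatch repair genes, Msh6, which recognises single mispaired bases, had 5.17 (a) and 5.05 (b) in OT7, 6.55 in OT14 and 5.04 in OT15 on PD-SCC arrays, against 4.71 (a), 4.51 (b), 5.25 and 3.88 on WD-SCC arrays. OT14 was the highest lineage in both stages, so the groups overlapped although the PD-SCC value was the higher within each lineage. The means were 5.45 ± 0.73 in PD-SCC and 4.59 ± 0.57 in WD-SCC (SD, n = 4 each), and the difference was 0.86 (SE 0.18, adjusted p = 0.0345). Without the lineage block its adjusted p was 0.191, and in the omissions of 1 array it passed the threshold only without the WD-SCC array a of OT7. Pms2, of the endonuclease that nicks the faulty strand, had 5.37 (a), 5.28 (b), 4.72 and 4.47 in PD-SCC, against 4.28 (a), 4.66 (b), 4.69 and 5.71 in WD-SCC. The stage difference pointed up in OT7 (0.85) and down in OT15 (-1.24), and over the lineages it was 0.12 (95% interval -0.80 to 1.04). The sign for Pms2 also depends on the probe set. 1432421_PM_at differed by -0.14, and 1436273_PM_at, under the control on every array, by 0.13.

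Among the end joining genes 0 of 3 passed the test. Xrcc4, the scaffold of the ligase, had 4.28 (a) and 4.45 (b) in OT7, 4.14 in OT14 and 4.65 in OT15 on PD-SCC arrays, against 3.81 (a), 4.18 (b), 4.18 and 3.84 on WD-SCC arrays (difference 0.38, 95% interval -0.05 to 0.80). Prkdc, the DNA-dependent kinase, had 3.60 (a), 3.87 (b), 3.41 and 3.72 in PD-SCC, against 3.84 (a), 3.32 (b), 3.53 and 3.58 in WD-SCC, and exceeded the control on 1 PD-SCC array (adjusted p = 0.733). Lig4, the ligase, had 2.98 (a), 3.03 (b), 3.01 and 2.89 in PD-SCC, against 3.13 (a), 2.93 (b), 2.98 and 2.99 in WD-SCC, all under the control.

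**Figure D3:**
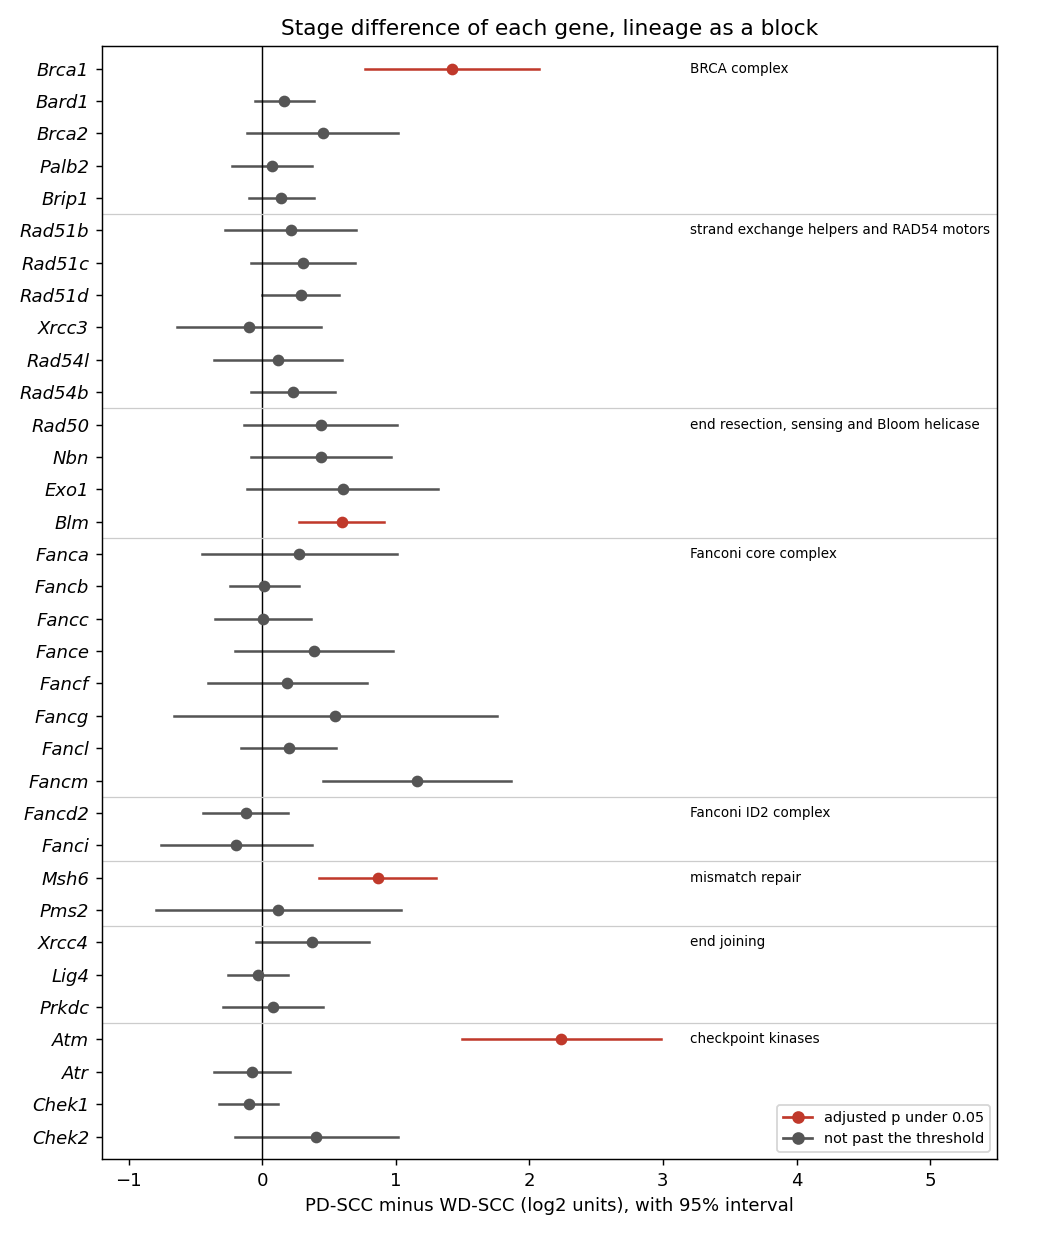
Stage difference (PD-SCC minus WD-SCC, log2 units, horizontal axis) of each of the 34 genes with its 95% interval from the limma fit with lineage as a block, in red where the adjusted p was under 0.05. Atm (2.24), Brca1 (1.42), Msh6 (0.86) and Blm (0.59) are red, and for the 17 genes under the bacterial control throughout WD-SCC the difference is no fold.

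The lineages were also taken one at a time, in a fit whose spread comes from the OT7 replicates alone. Within OT7, 4 of the 34 genes rose (Brca1, Exo1, Fancm and Atm) and 0 fell, against 6.21% and 2.87% of all genes. After cyclic loess the calls of Exo1 (adjusted p = 0.0318) and Atm (0.0459) remained, and those of Brca1 (0.0523) and Fancm (0.0575) were lost. In OT7 PD-SCC cells Exo1 was higher by 1.24 (adjusted p = 0.0339), at least 1.80-fold by its bound, and Fancm was higher by 1.66 (SE 0.25, adjusted p = 0.0420). Atm was higher by 2.69 in OT7 (adjusted p = 0.0353), and the differences of 2.16 for OT14 and 1.42 for OT15 did not pass (adjusted p = 0.187 and 0.268). Its bounds were at least 4.80-fold for OT7, 3.98-fold for OT14 and 1.28-fold for OT15. Brca1 was higher by 1.80 in OT7 (adjusted p = 0.0464), and the differences of 1.49 for OT14 and of 0.61 for OT15 did not pass (adjusted p = 0.237 and 0.545). Within OT14 and OT15 0 of the 34 genes passed the test, against 0.181% of all genes higher and 0.661% lower in OT14, and 0.562% and 0.766% in OT15.

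The difference was above 0 in each of the 3 lineages for 11 genes (Brca1, Bard1, Brca2, Brip1, Rad51c, Rad51d, Rad50, Blm, Fancm, Msh6 and Atm) and for 22.2% of all genes. It was below 0 in each lineage for 0 of the 34 and 29% of all genes. Taken by lineage, the members' median was 0.36 for OT7, 0.08 for OT14 and 0.14 for OT15. Whether the stage difference itself differed between lineages was tested by the interaction term in limma: 0 of all 17097 genes passed at an adjusted p under 0.05, and 11.9% had an unadjusted p under 0.05. Of the 34 genes, Exo1, Fance and Pms2 had an unadjusted p under 0.05 (adjusted p = 0.268, 0.263 and 0.250). In simulated data of this size, with changes placed in OT7 alone and in a small part of the genes, that test recovered 0% of changes of 1, 2 or 4 log2 units. The lack of a call therefore does not show that the lineages are alike.

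**Figure D4:**
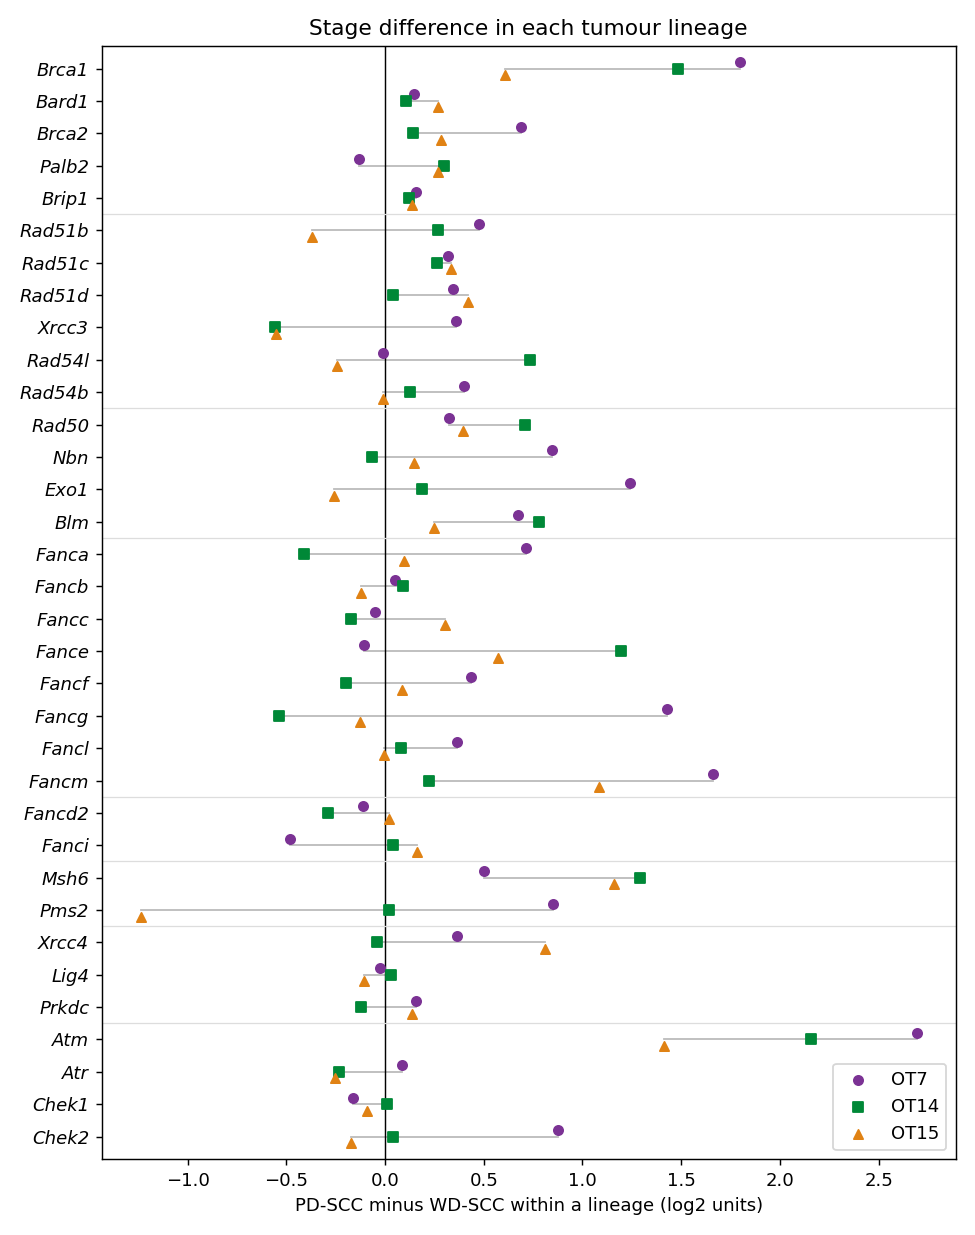
Stage difference (PD-SCC minus WD-SCC, log2 units, horizontal axis) of each gene in OT7 (purple circles, 2 arrays per stage), OT14 (green squares) and OT15 (orange triangles, 1 array per stage each). The 3 points of Atm, Brca1, Msh6 and Blm lie right of 0, while those of Pms2 run between -1.24 and 0.85.

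Probe sets of the same gene disagreed in part. The 34 genes had 64 probe sets, of which 22 exceeded the control on no array, and 4 passed the test when all 28898 probe sets of 1 gene were tested one by one, an alternative chosen after seeing the data. The 4 were the probe sets that stand for Atm, Brca1, Msh6 and Blm. Msh6 and Blm have 1 probe set each. The second Atm probe set (1428830_PM_at) averaged 3.67 ± 0.20 in PD-SCC and 3.39 ± 0.21 in WD-SCC (SD, n = 4 each), near or under the control, and did not pass (adjusted p = 0.302), so the rise of Atm rests on 1421205_PM_at. Of the other 3 Brca1 probe sets, 1424629_PM_at averaged 4.62 ± 0.68 in PD-SCC and 3.50 ± 0.21 in WD-SCC (adjusted p = 0.0759) and 1451417_PM_at 4.55 ± 0.44 in PD-SCC and 3.90 ± 0.44 in WD-SCC (adjusted p = 0.161), while 1427698_PM_at was under the control on all 8 arrays. With the mean of its probe sets the adjusted p of Brca1 was 0.0685. The other 2 Fancm probe sets differed by 0.03 and -0.05.

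**Figure D5:**
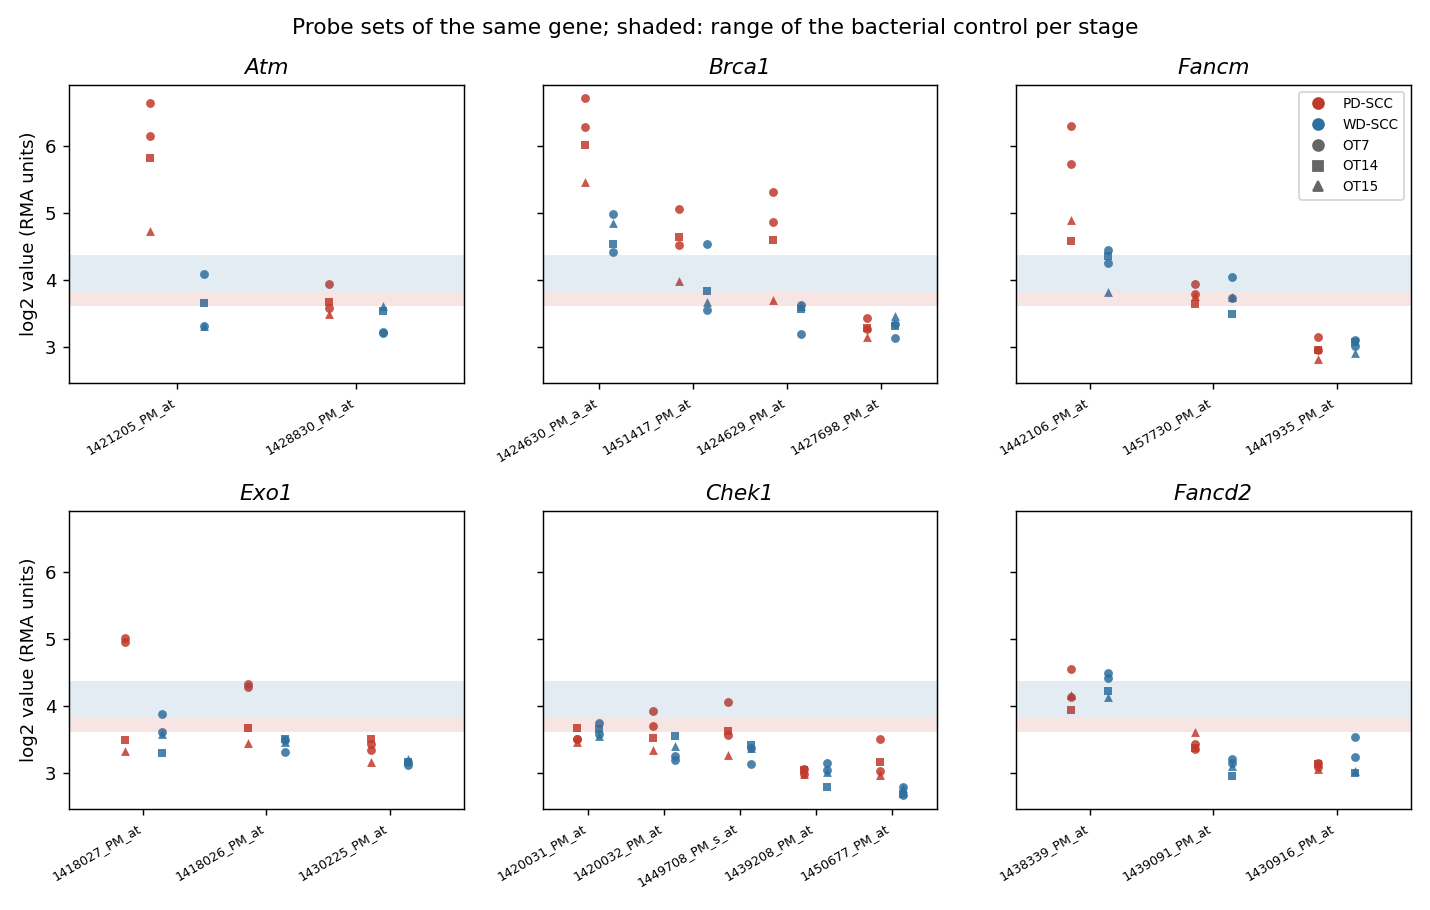
Log2 value (RMA units, vertical axis) on each array of every probe set of 6 genes, PD-SCC in red left of WD-SCC in blue, with shaded bands at the range of the bacterial control per stage. In Atm and Fancm the PD-SCC values of 1 probe set lie above the bands and apart from its WD-SCC values, which in Atm lie in or under the WD-SCC band, and the dimmer probe sets lie in or under the bands or close to them.

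Repair and checkpoint genes outside the 36 were counted by list. Of 139 listed genes, 122 were measured, 29 rose (23.8%) and 1 fell, with a median difference of 0.32, against 7.78% and 4.81% of all genes called and a median of -0.06. After cyclic loess 15 rose and 1 fell, with the OT7 arrays averaged 3 and 0, and without OT7 0 and 0. The lesion bypass polymerase gene Polh had 8.56 (a) and 8.20 (b) in OT7, 8.44 in OT14 and 6.04 in OT15 on PD-SCC arrays, against 4.79 (a), 4.96 (b), 4.50 and 3.68 on WD-SCC arrays. Its groups did not overlap (difference 3.33, SE 0.27, adjusted p = 0.00345), and 2 of the 6 reversal and bypass genes measured rose, Polk being the other (1.5). The probe sets used for Polh, Rfc2 and Cetn2 have the suffix x, which Affymetrix gives to sets whose probes may also bind other transcripts.

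In other recombination genes 4 of 29 rose and 0 fell, among them all 3 subunits of the single-strand binding protein RPA, Rpa1 by 2.61, Rpa2 by 1.20 and Rpa3 by 1.17. Of 10 other mismatch repair genes 5 rose, among them the clamp loader subunit genes Rfc3 (2.22) and Rfc2 (1.01) and the replication clamp gene Pcna (1.56), which also serve DNA replication. Of 14 other Fanconi and crosslink genes 3 rose, namely the deubiquitinase gene Usp1 (1.62), the polymerase zeta subunit gene Mad2l2 (1.51) and the ubiquitin ligase gene Rad18 (0.97). In end joining 2 of 9 rose, the chromatin reader gene Trp53bp1 (2.19) and Rif1 (0.94), which both favour end joining over resection.

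Of 23 other checkpoint genes 4 rose, including the ATR activator gene Topbp1 (1.13), the mitotic kinase gene Plk1 (1.15) and the fork protection gene Tipin (at least 1.60-fold). The 1 gene that fell was Wee1, a kinase that holds back mitotic entry, named after its values were seen (6.18 ± 0.55 in PD-SCC and 7.69 ± 0.38 in WD-SCC, difference -1.52, adjusted p = 0.0353). In base excision repair 4 of 18 rose, among them the uracil glycosylase gene Ung (2.26), the strand break sensor gene Parp1 (1.95) and Apex2 (1.15). In nucleotide excision repair 5 of 14 rose, among them the ultraviolet damage sensor subunit gene Ddb1 (1.51), Cetn2 (0.96) and the helicase gene Ercc3 (0.91). All named genes of these lists had adjusted p under 0.05 in the limma fit.

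Markers of cell state and cell type were counted in the same way, beside the 7.78% of all genes that rose and the 4.81% that fell. Of 33 genes of dividing cells 21 rose and 0 fell, and their summed linear level was 6118 to 10497 in PD-SCC and 1843 to 4059 in WD-SCC. Mki67 was 7.74 to 8.41 in PD-SCC and 5.67 to 7.11 in WD-SCC, and Top2a 4.96 to 7.59 in PD-SCC and 4.37 to 4.78 in WD-SCC. Of 14 keratinocyte genes 9 fell (summed level 456 to 886 in PD-SCC and 10105 to 15984 in WD-SCC), and Krt5 was 3.93 to 4.33 in PD-SCC and 10.5 to 11.6 in WD-SCC. Of 13 haematopoietic genes 3 fell (summed level 190 to 285 in PD-SCC and 543 to 1236 in WD-SCC). Of 11 endothelial genes 4 fell (164 to 497 in PD-SCC and 249 to 1939 in WD-SCC), and of 12 fibroblast genes 1 fell (2854 to 5719 in PD-SCC and 1520 to 10158 in WD-SCC). The summed levels of both these lists overlapped between stages, and 1 fibroblast gene is too few to set apart from the share of all genes. On these bulk arrays fewer cells of a type and less RNA per cell cannot be told apart, and the part of these markers in the results for the 34 genes was not tested.

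The sort markers were checked against the labels. Itga6 was 6.14 to 7.85 in PD-SCC and 5.32 to 8.15 in WD-SCC, and Cd34 was 6.75 to 8.72 in PD-SCC and 3.58 to 7.0 in WD-SCC. The lowest Cd34 value, 3.58, was that of the OT15 WD-SCC array, under its bacterial control of 4.37 although the cells were sorted for CD34. Without that array, which leaves no WD-SCC array in OT15, 3 of the 34 genes rose: Atm (adjusted p = 0.0183), Brca1 (adjusted p = 0.0237) and Blm (adjusted p = 0.0422). Msh6 then had a difference of 0.77 (adjusted p = 0.0972). The 3′ to 5′ signal of the Gapdh and Actb control probe sets, a sign of RNA integrity, gave p = 0.886 and 0.343 between stages (exact permutation tests, two-sided, n = 4 each).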

How the data were processed

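The authors deposited 1 log2 value per probe set and array, made with RMA in the affy package per the submitters' processing notes, a method of background correction, quantile normalisation and probe summary. Their versions were not stated. That the scale is log2 follows from the range of 2.40 to 13.2 (array medians 3.66 to 3.77). Arrays carry no read depth, so their number limits the precision.

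The platform annotation gives 1 gene symbol to 28898 of 45141 probe sets, several to 551 and none to 15588, and the remaining 104 are controls. Symbols were updated by Entrez number through a RefSeq table (99.1% of genes matched). A gene was its probe set with the highest mean, which left 17097 genes. R 4.3.3 with limma 3.58.1 fitted stage with lineage as a fixed block (4 residual degrees of freedom), and a fit of 6 lineage and stage means (2 residual degrees of freedom). All limma tests are two-sided with Benjamini-Hochberg adjustment over all genes, with 2 exceptions. Adjusted p-values of probe sets named by number are over the 28898 probe sets of 1 gene. Those with the filter on dim genes are over the 9878 genes that passed it. Lower bounds set the bright stage's mean against, for each dim array, the higher of its value and its bacterial control. The limma tests used the values as deposited, and the bounds themselves were not tested. Python 3.11.15 with matplotlib 3.10.9 made tables and plots.

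Pairing by lineage comes from the series design. Deviations from the stage means correlated at -0.04, 0.05 and 0.08 across genes for OT7, OT14 and OT15 in that order, between PD-SCC and WD-SCC. Taken over all genes the values thus showed little of the pairing. Single genes can differ, as Msh6 was highest in OT14 in both stages. On simulated data the changes were placed in a small part of the 17097 genes. The stage fit recovered 38.6%, 62.9% and 88.6% of changes of 1, 2 and 4 log2 units. These rates need not hold for another share of changed genes.

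The members, lists and tests were chosen with earlier results of these data known. The values on every array are given for members past the threshold, for the 3 smallest p of each role, and for both members of roles with 2 genes. Genes of other lists are named when among the 3 smallest adjusted p of their list and past the threshold. Alternatives were the lineage block left out or random, OT7 averaged or left out, a filter on dim genes, other probe set rules, cyclic loess, 75th percentile scaling, a trended robust prior and the omission of each array.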

Additional observations from a re-analysis of the deposited data

Results flagged for a closer look

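In 4 of 68 sets of 4 arrays (each gene in each stage), 1 array stood apart from the other 3 by Dixon's 95% criterion, a rate that chance gives in about 1 in 20. Brca2 was 4.54 on the OT7 PD-SCC array b, against 3.63 to 3.64 on the other PD-SCC arrays. Msh6 was 6.55 on the OT14 PD-SCC array, against 5.04 to 5.17 on the others, and OT14 was the highest Msh6 lineage in WD-SCC as well. Both low outliers were on the OT7 WD-SCC array b: Fanca was 4.98 there, against 5.70 to 5.75 on the other WD-SCC arrays, and Fancl was 4.49, against 4.88 to 4.94.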

How the results depend on the processing

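The count of members past the threshold, 4, was 2 with no replicate block (lineage left out), 2 with lineage as a random block, 2 after cyclic loess, 0 with the OT7 arrays averaged and 0 without OT7, and 1 to 3 when single arrays were left out. Left-out arrays that took the count to 1 were the OT7 WD-SCC array b and either OT7 PD-SCC array, and either OT14 array took it to 2. The count within lineages, 4, was 2 after loess, with Brca1 and Fancm lost in OT7. All calls over all genes, 2154, were 401 with OT7 averaged, 246 without OT7 and 886 to 1689 with single arrays left out. The members' median was 0.071 under 75th percentile scaling, 0.062 without OT7 and 0.13 to 0.28 with single arrays left out. The 30 calls in other repair lists were 16 after loess, 3 with OT7 averaged, 0 without OT7 and 10 to 18 with single arrays left out. Fewer arrays enter the fits with OT7 averaged, without OT7 or without 1 array, and the estimates moved as well, as the members' median shows. The cause of these changes was not tested for any setting. Omitting either array of OT14, or either of OT15, gives 1 fit, so 16 settings were distinct. Atm was past the threshold in 14 of these (adjusted p 0.0616 with OT7 averaged and 0.0902 without OT7), Brca1 in 9, Msh6 in 5, Fancm in 4 and Blm in 3, and each of these 5 kept a positive difference in all 16. A filter on dim genes, under which all of these but Blm passed, gave 4 members as well, which is no support, since a gene can pass it through the stage where it is high, as Atm does. Omitting an OT14 or OT15 array leaves that lineage out of the stage comparison. Probe sets near the bacterial control limit what can be said of the 17 members that no WD-SCC array measured.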
